A study of Mus musculus with 6 samples.

Results

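The transglutaminase family was followed in 3 ovarian tumors from mice with *Tgm2* (wild type, WT) and 3 from mice without it (*Tgm2* knockout). The aim was to see which members were present and whether any was higher where the host lacked *Tgm2*. The family was taken as the genes *Tgm1* to *Tgm7* and *F13a1*, chosen by symbol. Values for 6 of these 8 symbols were used, among 20076 genes with a value in each tumor (*Tgm1*, *Tgm2*, *Tgm3*, *Tgm4*, *Tgm5* and *F13a1*). *Tgm6* and *Tgm7* had no value among these genes, so whether they were present could not be read and they were not analysed here.

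The mouse ovarian cancer line ID8 Trp53-/- Brca1-/-, made deficient in both genes, was injected under the ovarian bursa of C57BL/6 mice of each genotype, and bulk RNA was taken from the tumors 6 weeks later. The authors describe injections on both sides of a mouse, and the labels do not say whether any tumors shared a mouse. The labels give no age, sex or treatment, and they name the samples by mouse genotype and replicate without a batch. Both groups therefore share the same cancer cells, which carry their own *Tgm2*, and the knockout was in the host only. How much of *Tgm2* was removed in the knockout mice is not given in the sources used here. A transcript of *Tgm2* in a knockout tumor can come from the cancer cells or from what is left of the host gene, and these cannot be told apart in a value for the whole gene. Each value is a normalized count, an estimated read count divided by a factor for the depth of its library. WT tumors 1, 2 and 3 had sums of 34801694, 35325875 and 33916288 over all genes, and knockout tumors 1, 2 and 3 had 32316613, 35827822 and 37717165. The steps between low values put 1 read at 0.944 to 1.08 normalized counts, so a value of 10 rests on about 10 reads.

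Transglutaminases join the side chain of a glutamine in one protein to a lysine in another, which makes matrix, fibrin and the cornified layer of skin resistant to cleavage. *Tgm2* encodes TG2, the widely expressed member, which also binds GTP and acts at the cell surface with fibronectin and integrins. *F13a1* encodes the catalytic A subunit of coagulation factor XIII, which stabilizes fibrin and is made by monocytes, macrophages and megakaryocytes. *Tgm1*, *Tgm3* and *Tgm5* are best known from keratinocytes and hair follicles, and *Tgm4* from the prostate.

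All members have the same catalytic center, and the 57 bases around the codon of the active-site cysteine are shown because they mark what the 6 genes share and where they differ. They were read from the GENCODE M21 transcripts of GRCm38, 5′ to 3′ on the strand of the gene, with the cysteine codon in capitals.
Tgm2: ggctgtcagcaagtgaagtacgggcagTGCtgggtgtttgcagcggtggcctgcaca
Tgm5: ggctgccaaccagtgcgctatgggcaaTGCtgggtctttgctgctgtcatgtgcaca
Tgm1: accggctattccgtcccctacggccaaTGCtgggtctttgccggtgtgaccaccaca
Tgm3: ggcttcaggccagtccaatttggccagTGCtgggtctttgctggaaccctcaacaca
Tgm4: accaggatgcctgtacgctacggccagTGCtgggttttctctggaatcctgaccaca
F13a1: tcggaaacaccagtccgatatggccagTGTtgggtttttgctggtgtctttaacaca
The *Tgm2* stretch lies in exon 6 of the transcript Tgm2-201 at chr2:158131332-158131388, minus strand, and the *F13a1* stretch in exon 7 of F13a1-201 at chr13:36946444-36946500, minus strand. Of the 57 positions, 22 held the same base in all 6 genes. *F13a1* was the only one of the 6 with TGT in place of TGC, both codons for cysteine. *Tgm2* was closest to *Tgm5* in this stretch, with 73.7% identical bases, and farthest from *F13a1*, with 52.6%, which was also the lowest of the 15 pairs. In each of the 6 transcripts an exon ended 28 bases after the cysteine codon.

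On GRCm38, *Tgm2* spans chr2:158116402-158146436 on the minus strand and *F13a1* chr13:36867178-37050244 on the minus strand. *Tgm1* lies at chr14:55700009-55713926, and *Tgm4* at chr9:123034726-123067561. *Tgm5* (chr2:121046111-121085841) lies on chromosome 2 between *Epb42*, a relative that encodes a red cell membrane protein without transglutaminase activity, and *Tgm7*. *Tgm3* (chr2:130012349-130050399) lies on the same chromosome next to *Tgm6*.

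The tumors were not alike in the RNA of cell marker genes. The labels call each sample a primary tumor, and these tumors held RNA of fat, smooth muscle, vessel and blood cell genes. They also held *Wt1*, a gene of mesothelium and ovarian surface cells that had between 13131 and 20641 normalized counts. WT tumor 3 stood apart from the other WT tumors. Its mean log2 value over 15 epithelial and mesothelial genes was 12.02, against 10.38 and 11.10 in WT tumors 1 and 2. The genes of that list did not all go this way. *Epcam* had 8047, against 90.5 and 959, while *Upk3b* had 2805, against 6634 and 9114 (both chosen after their values were seen). *Wt1* was lowest in WT tumor 3. The *Cbr2* value of that tumor was 12541, against 270 and 556. In bulk RNA, fewer cells of a type and less RNA per cell cannot be told apart. List medians below are given with their range when 1 tumor at a time was left out.

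*Tgm2*, the targeted gene, was lower in every knockout tumor but was far from absent. WT tumors 1, 2 and 3 had 14978, 12155 and 13180 normalized counts of it, and knockout tumors 1, 2 and 3 had 5853, 6071 and 8157. The lowest WT tumor was well above the highest knockout tumor, so the labels and the values went the same way. The means were 13437 ± 1429 and 6694 ± 1272 (SD, n = 3 per group), and the knockout mean was 49.8% of the WT mean. The single knockout tumors stood at 43.6%, 45.2% and 60.7% of the WT mean.

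The groups were compared with limma on log2(value + 1) over the 19667 genes with at least 1 normalized count in at least 3 tumors. A gene was called at a Benjamini-Hochberg adjusted p under 0.05 with an absolute log2 fold change over 1. *Tgm2* had a log2 fold change of -1.02 (SE 0.22, 95% interval -1.52 to -0.51), which is a fold of 0.494 with an interval from 0.349 to 0.700. Its unadjusted p was 0.0015 and its adjusted p from limma was 0.391, so it did not pass the limits. An exact permutation test gave p = 0.1, two-sided, which is the smallest that 3 tumors against 3 allow. All 6 members passed the filter on low values and were above 0 in all 6 tumors, and 0 of the 6 were called, where 0.102% of all tested genes were called, 20 genes that were all higher in knockout tumors. At an unadjusted p under 0.05, 1 of the 6 members passed (*Tgm2*), and 1137 of all 19667 genes did. *Tgm2* was 1 of 6 members whose groups did not overlap, against 10.5% of all tested genes, and 5.33% of all tested genes were lower in this way. The labels do not say more than that each tumor was from a mouse of its group, so the p-values measure the spread between these tumors.

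**Figure D1:**
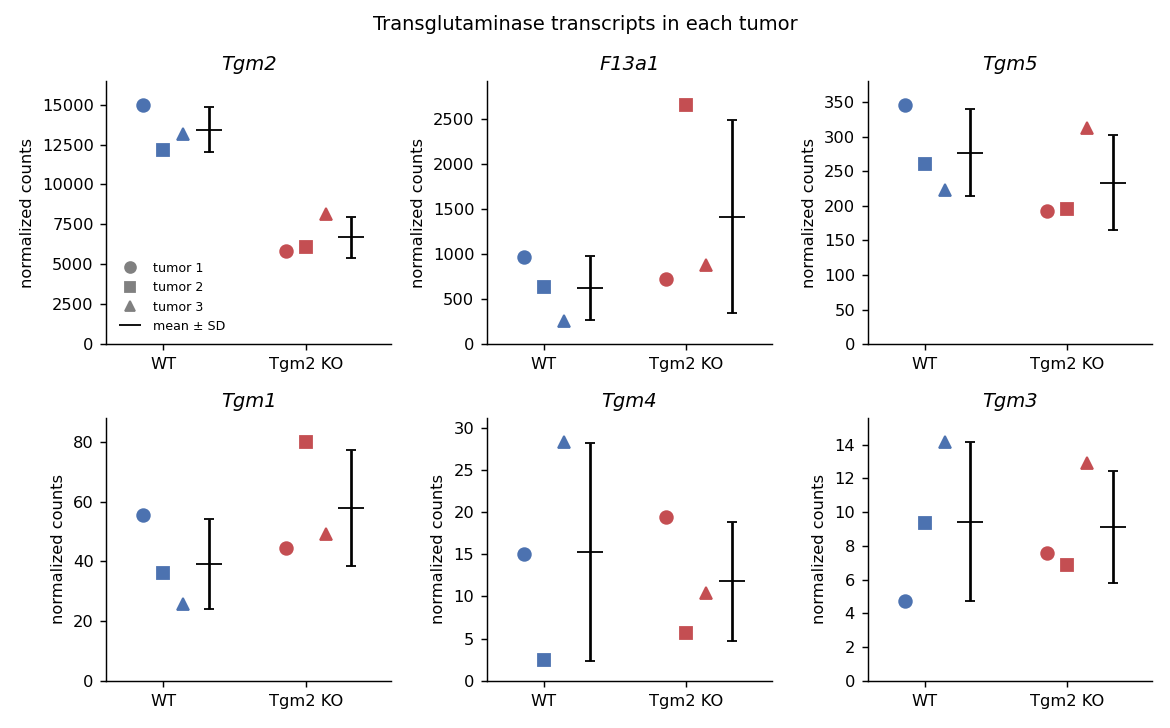
Normalized counts (y axis, linear from 0, 1 panel per gene) of 6 transglutaminase genes in the 3 WT tumors (blue) and 3 *Tgm2* knockout tumors (red), with the mean ± SD of each group as black bars and the marker shape giving the tumor number. Only the *Tgm2* panel has groups that do not overlap, and the highest *F13a1* point is knockout tumor 2 at 2653.

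*F13a1* had the highest mean difference of the other members, and its size depended on single tumors. The WT tumors had 966, 635 and 257 normalized counts of it, in the order of their numbers, and the knockout tumors 719, 2653 and 876. Knockout tumors 1 and 3 lay below WT tumor 1, and knockout tumor 2 was at 429% of the WT mean. The means were 619 ± 355 in WT and 1416 ± 1074 in knockout tumors. The log2 fold change was 1.13 (SE 0.59, 95% interval -0.22 to 2.49), with an adjusted p of 0.889 from limma and p = 0.3 in the exact permutation test. Without knockout tumor 2 it was 0.55, without WT tumor 3 it was 0.60, and with the mean of the white adipocyte genes as a covariate in limma it was -0.32 (SE 0.995). The mean of the adipocyte genes did not overlap between the groups, so that covariate ran along with genotype. On the linear scale the interval reached from a fold of 0.857 to a fold of 5.63.

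*Tgm1*, the keratinocyte enzyme, was low and overlapped between the groups. The WT tumors had 55.5, 36.1 and 25.6 normalized counts and the knockout tumors 44.3, 80.0 and 49.3. Knockout tumor 2 was the highest here too, and WT tumor 3 the lowest. The log2 fold change was 0.57 (SE 0.56, 95% interval -0.70 to 1.85), with an adjusted p of 0.908 from limma and p = 0.3 in the exact permutation test, and the interval reached a fold of 3.60 at its upper end. *Tgm1* and *F13a1* placed the 6 tumors in exactly the same order, from WT tumor 3 to knockout tumor 2 (Spearman's rho = 1 and Pearson's r = 0.982 over log2 values of 6 tumors, given as a description).

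*Tgm5*, another keratinocyte enzyme and the member closest to *Tgm2* in the sequence above, was lower on average but overlapped. Its normalized counts were 346, 261 and 223 with WT hosts and 193, 195 and 313 with knockout hosts. Knockout tumors 1 and 2 were below all WT tumors, and knockout tumor 3 was the second highest of the 6. The log2 fold change was -0.26 (SE 0.35, 95% interval -1.05 to 0.53, adjusted p = 0.932 from limma). This was the narrowest interval among the 5 members other than *Tgm2*, and its upper end was a fold of 1.45.

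*Tgm3* and *Tgm4* rested on few reads. For *Tgm3* the WT tumors had 4.73, 9.39 and 14.2 normalized counts and the knockout tumors 7.59, 6.87 and 12.9. For *Tgm4* the WT tumors had 15.0, 2.52 and 28.3 and the knockout tumors 19.4, 5.62 and 10.4, an 11.2-fold range over the 6 tumors with both ends in the WT group. Their log2 fold changes were 0.02 (95% interval -1.59 to 1.62) and -0.04 (95% interval -2.17 to 2.10), and the sign of each turned under some alternative settings. Without WT tumor 3 they were 0.34 and 0.62. Both intervals included a difference of the size of that of *Tgm2*, so one that large could not be told from none. *Epb42*, the inactive relative, had 8.09, 5.97 and 16.2 normalized counts with WT hosts and 5.07, 3.63 and 1.15 with knockout hosts. All 3 knockout tumors lay below the WT tumors, with a log2 fold change of -1.39 (SE 0.76, adjusted p = 0.889 from limma, exact permutation p = 0.1). It too rested on few reads, and its log2 fold change was -0.58 with a pseudocount of 10 and -0.72 with the white adipocyte covariate.

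**Figure D2:**
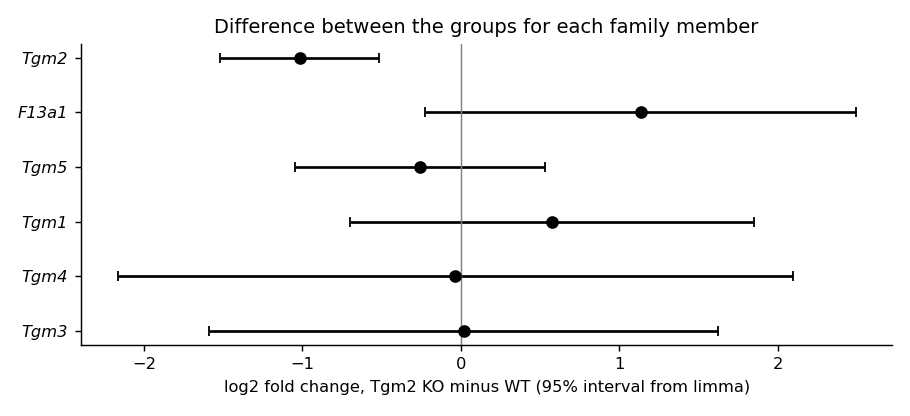
Log2 fold change of each member, knockout minus WT (x axis, log2 scale), with the 95% interval from limma over 6 tumors as horizontal bars and a vertical line at 0. The interval of *Tgm2*, from -1.52 to -0.51, is the only one of the 6 that does not reach 0.

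Levels of different genes were compared per kilobase of the longest annotated transcript. On this scale *Tgm2* was the main transglutaminase transcript in all 6 tumors, with 3737 ± 397 normalized counts per kilobase in WT and 1861 ± 354 in knockout tumors. *F13a1* followed with 157 ± 89.8 and 358 ± 272, *Tgm5* with 106 ± 24.0 and 89.5 ± 26.4, and *Tgm1* with 13.7 ± 5.33 and 20.3 ± 6.79. *Tgm4* and *Tgm3* had means of 5.49 and 2.28 in WT tumors. *F13a1* and *Tgm5* overlapped over the 6 tumors, since *F13a1* was the lower of the pair in WT tumor 3 (64.9 against 85.5 per kilobase). *Tgm1* and *Tgm4* overlapped, as did *Tgm4* and *Tgm3*, while *Tgm2* overlapped with no other member and *Tgm5* did not overlap with *Tgm1*.

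The sum over the 6 members was lower in knockout tumors, as *Tgm2* was, and the difference in the other members was small beside that of *Tgm2*. The WT tumors had sums of 4568, 3656 and 3838 normalized counts per kilobase, and the knockout tumors 1908, 2466 and 2634. The groups did not overlap, with a log2 difference of -0.79 (exact permutation p = 0.1, the smallest possible). The 5 members other than *Tgm2* together had 403, 276 and 173 per kilobase in WT tumors and 280, 778 and 366 in knockout tumors, which overlapped (log2 difference 0.68, exact permutation p = 0.4). The log2 difference was 0.37 without WT tumor 3 and 0.26 without knockout tumor 2. The mean of these 5 was 190 per kilobase higher in knockout tumors, against a difference of -1875 per kilobase for *Tgm2*, or 10.2% of that difference in size. Without knockout tumor 2 the figure was 2.17%, and without knockout tumor 1 it was 16.4%.

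The share of *Tgm2* in the family sum was 91.2%, 92.4% and 95.5% with WT hosts and 85.3%, 68.5% and 86.1% with knockout hosts. The *F13a1* share was 5.35%, 4.39% and 1.69% in WT tumors and 9.53%, 27.2% and 8.42% in knockout tumors. Neither share overlapped between the groups (exact permutation p = 0.1 for each). The *Tgm5* share went from 2.23% to 2.90% in WT tumors and from 3.03% to 4.55% in knockout tumors, although its level was not higher. A share is higher for each gene where *Tgm2* is lower, so these shares do not say that a level rose.

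**Figure D3:**
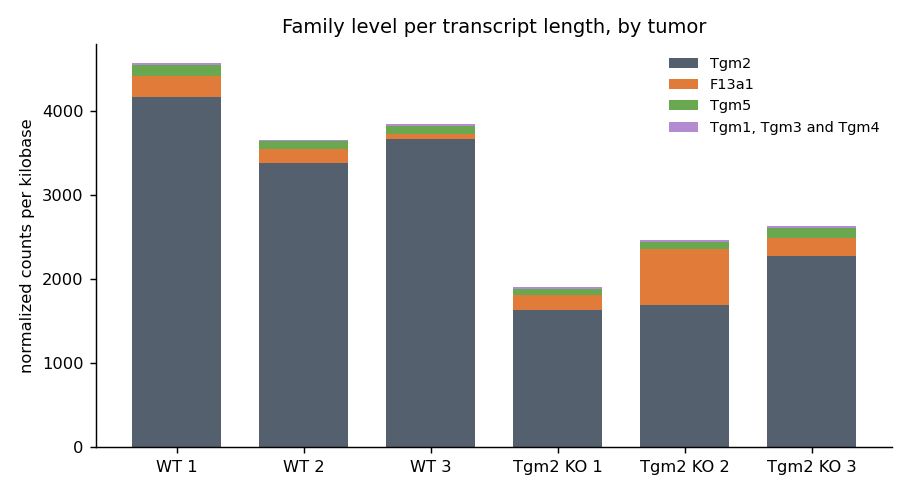
Normalized counts per kilobase of the longest transcript (y axis, linear from 0) in each of the 6 tumors, stacked by gene, so that the height of a bar is the family sum. *Tgm2* takes the largest part of all 6 bars, and the *F13a1* part is widest in knockout tumor 2, where it was 27.2% of the sum.

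The ratio of each member to *Tgm2* within a tumor takes out whatever scales both genes alike. The log2 ratio of *F13a1* to *Tgm2* was -3.95, -4.26 and -5.68 with WT hosts and -3.02, -1.19 and -3.22 with knockout hosts. All 3 knockout tumors were above all WT tumors, by 2.15 on average. The ratio of *Tgm1* to *Tgm2* was higher by 1.59, that of *Tgm5* by 0.76 and that of *Tgm3* by 1.03, all without overlap, and that of *Tgm4* by 0.98 with overlap. The exact permutation p was 0.1 for the 4 ratios without overlap and 0.4 for *Tgm4*. Each of these ratios holds the difference in *Tgm2* itself, a log2 fold change of -1.02.

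Because *F13a1* is a gene of monocytes, macrophages and platelets, its values were set beside the markers of these cells. Over 14 core macrophage and monocyte genes, 0 were called and 12 of the 14 had a log2 fold change above 0. Of the 14, 1 was higher without overlap, against 5.18% of all tested genes. The median was 0.41, against a median of -0.03 over all tested genes. The list median ranged from 0.07 (without WT tumor 3) to 0.83 (without knockout tumor 1). Their most abundant gene was *Lyz2*, a lysozyme of myeloid cells, followed by *C1qa*, a complement gene of macrophages. The summed level of the list was 94803, 71914 and 49146 normalized counts with WT hosts and 47207, 145365 and 104422 with knockout hosts, and none of its genes was at 0. Knockout tumor 2, the highest for *F13a1*, was also the highest here, while knockout tumor 1 had the lowest sum.

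*F13a1* followed the core macrophage genes over the 6 tumors with Pearson's r = 0.864 (exact permutation p = 0.0111, adjusted p = 0.0889 over 16 relations) and Spearman's rho = 0.886 (exact permutation p = 0.0333, adjusted p = 0.267). Without the 2 tumors farthest from the median of the macrophage score, r was 0.782, and after removing the group means it was 0.831. With 16 resident and alternatively activated macrophage genes, r was 0.880 (exact permutation p = 0.00694, adjusted p = 0.0889) and rho was 0.943 (exact permutation p = 0.0167, adjusted p = 0.267). Without the 2 farthest tumors that r was 0.625, and within groups it was 0.823. Other marker lists gave high values of r as well. With 12 general leukocyte genes r was 0.824 (exact permutation p = 0.0306, adjusted p = 0.163) and rho was 0.771 (exact permutation p = 0.103, adjusted p = 0.274). Without the 2 farthest tumors that r was 0.937, and within groups it was 0.740. With 22 white adipocyte genes r was 0.733 (exact permutation p = 0.0875, adjusted p = 0.280) and rho was 0.429 (exact permutation p = 0.419, adjusted p = 0.839). Without the 2 farthest tumors it was 0.152, so it rested on them, and within groups it was 0.569. With the epithelial and mesothelial genes r was -0.568 (exact permutation p = 0.1875, adjusted p = 0.375) and rho was -0.771 (exact permutation p = 0.103, adjusted p = 0.274). The relations of *Tgm2* were counted too, and its largest r in size was -0.804, with the white adipocyte genes (exact permutation p = 0.0639, adjusted p = 0.256). Without the 2 farthest tumors that r was -0.899, and within groups it was -0.034. None of the 16 relations of *F13a1* and *Tgm2* passed the adjustment.

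Relative to the mean log2 value of the core macrophage genes, *F13a1* was 0.68 higher in knockout tumors with overlap (exact permutation p = 0.3), and with that mean as a covariate in limma its log2 fold change was 0.47 (SE 0.42, adjusted p = 0.981). *Tgm2* relative to the same genes was lower in all 3 knockout tumors (log2 means 2.41 in WT and 0.94 in knockout tumors, difference -1.47, exact permutation p = 0.1). With the covariate its log2 fold change was -1.09 (SE 0.26, adjusted p = 0.573 from limma). The part of macrophage content in the *F13a1* values was not tested further.

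**Figure D4:**
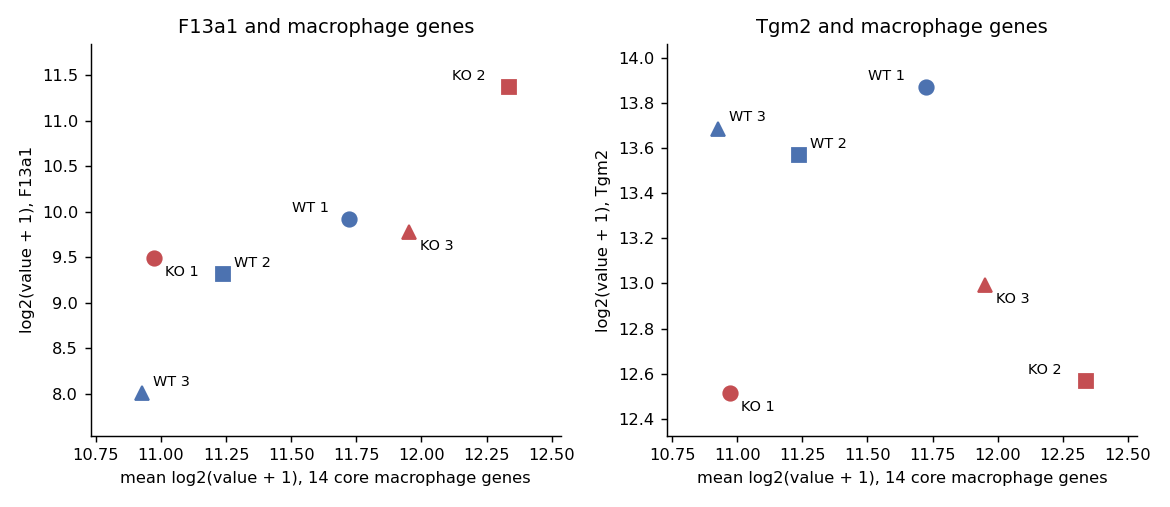
Log2(value + 1) of *F13a1* (left) and *Tgm2* (right) on the y axes against the mean log2(value + 1) of 14 core macrophage genes on the x axes, 1 point per tumor, WT in blue and knockout (KO) in red. *F13a1* is lowest in WT tumor 3 and highest in knockout tumor 2, where the mean of the macrophage genes is also lowest and highest, while the *Tgm2* points separate by genotype.

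Platelet genes were set beside *F13a1* in the same way. Of 11 tested platelet and megakaryocyte genes, 0 were called, 1 was lower without overlap (*Ppbp*, a platelet chemokine gene, from 5.66 to 23.9 in WT and from 1.08 to 2.84 in knockout tumors, chosen after its values were seen) and the median log2 fold change was -0.21 (-0.67 without WT tumor 1 to -0.05 without WT tumor 2), where 5.33% of all tested genes were lower without overlap. Among genes with at least 10 normalized counts in at least 3 tumors the median was 0.08. The summed level was 605, 852 and 784 in WT tumors and 517, 870 and 466 in knockout tumors, led by *Pf4*, platelet factor 4, and *Itga2b*, the platelet integrin. The defining genes *Gp5*, *Treml1* and *Tubb1* were at 0 in at least 1 tumor. Pearson's r with *F13a1* was -0.145 (exact permutation p = 0.769, adjusted p = 0.769) and rho was -0.257 (exact permutation p = 0.658, adjusted p = 0.919). Without the 2 farthest tumors r was -0.016, and within groups it was 0.234.

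Markers of other cell types were also set beside *Tgm2*, and no list was tested as a whole. All 22 white adipocyte genes had a log2 fold change above 0, with a median of 1.53 (1.02 without knockout tumor 2 to 2.10 without knockout tumor 1). Of these, 12 were higher without overlap, against 5.18% of all tested genes, and 1 was called, against 0.102% of all tested genes. This was *Lep*, which encodes leptin (log2 fold change 3.74, SE 0.47, adjusted p = 0.0393 from limma). With the mean of this list, *Lep* included, as a covariate, 0 of all tested genes were called. That mean log2 value was 9.12 to 9.81 in WT and 10.2 to 11.9 in knockout tumors, without overlap. The fit could therefore not fully separate it from genotype. The summed level was 58968, 76464 and 48404 in WT tumors and 70902, 265427 and 157452 in knockout tumors, led by *Lpl* and *Cfd*, the lipase and adipsin genes, and no gene of the list was at 0. Relative to these genes *Tgm2* was lower in all 3 knockout tumors (log2 difference -2.67), and with their mean as a covariate its log2 fold change was -0.998 (SE 0.41, adjusted p = 0.574 from limma).

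The 10 smooth muscle genes all had a log2 fold change below 0, with a median of -1.31. The median was -0.56 without knockout tumor 3 and -1.95 without knockout tumor 1. They were led by *Acta2* and *Tagln*, genes of the contractile apparatus, and 1 of the 10 was lower without overlap (*Tagln*, 18854 to 27320 in WT and 4640 to 15043 in knockout tumors), against 5.33% of all tested genes. None of the 10 was called by limma, and 3 had an unadjusted p under 0.05. Their summed level was 110063, 85141 and 62429 in WT tumors and 87803, 33962 and 18225 in knockout tumors, with no gene at 0. *Tgm2* relative to these genes overlapped between the groups (difference 0.26, exact permutation p = 0.8). With their mean as a covariate the log2 fold change of *Tgm2* was -1.18 (SE 0.31). Among the 3 knockout tumors, smooth muscle genes were lowest in tumor 3, and *Tgm2* was highest there. The part of fat and smooth muscle content in the *Tgm2* difference was not tested beyond these values.

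The 15 endothelial genes, from a cell type in which TG2 is abundant, had a median log2 fold change of 0.35 (0.25 to 0.43 without 1 tumor) and 0 were called. Of these, 1 was higher and 1 was lower without overlap, against 5.18% and 5.33% of all tested genes, and *Pecam1* and *Eng* were the most abundant. Their summed level was 19482, 14135 and 17340 in WT tumors and 17805, 18673 and 19704 in knockout tumors, with no gene at 0. *Tgm2* relative to them was lower without overlap (log2 difference -1.19), and with their mean as a covariate its log2 fold change was -1.04 (SE 0.32). The 15 epithelial and mesothelial genes had a median of -0.40 with 0 called and 4 lower without overlap, where 5.33% of all tested genes were lower in this way. That median was -0.16 without WT tumor 3 and -0.69 without WT tumor 1. Relative to these genes the *Tgm2* values overlapped (difference -0.45, exact permutation p = 0.6).

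The remaining marker lists were described in the same way, and their medians were not tested against each other. The 11 plasma cell genes had the highest median in the main fit, 2.24 (1.74 without WT tumor 1 to 2.56 without knockout tumor 2). With a pseudocount of 10 it was 1.29, below the 1.53 of the white adipocyte genes in that setting. Of these, 9 were higher without overlap, against 5.18% of all tested genes, and 3 were called, against 0.102%. These were *Jchain*, the joining chain of secreted antibodies, *Mzb1* and *Pou2af1*. Their log2 fold changes were 4.80, 4.27 and 3.76 (adjusted p = 0.000989, 0.00763 and 0.0439 from limma). With the white adipocyte covariate 0 of all tested genes were called, so these 3 calls were lost, while the plasma cell median was 1.92. That covariate did not overlap between the groups, so the fit could not fully separate it from genotype. Without WT tumor 2 only 2 of all tested genes were called. *Xbp1*, the other abundant gene of that list, had a log2 fold change of 0.51. The 12 leukocyte genes, led by *Laptm5* and *Lcp1*, had a median of 0.53 (0.32 without WT tumor 3 to 0.81 without knockout tumor 1) with 1 higher without overlap, against 5.18% of all tested genes. The 12 fibroblast genes, led by *Col3a1* and *Col1a2*, had a median of 0.44 (0.05 without WT tumor 3 to 0.73 without WT tumor 1). The 16 resident macrophage genes, led by *Maf* and *Cbr2*, had 0.74 (0.13 without knockout tumor 2 to 1.23 without knockout tumor 1). Of these, 4 were higher and 1 was lower without overlap, against 5.18% and 5.33% of all tested genes. The 12 large peritoneal macrophage genes, led by *Ltbp1* and *Gata6*, had 0.09 (0.06 without WT tumor 2 to 0.36 without WT tumor 1). None of these 4 lists held a called gene.

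The proteins that TG2 works with or on were then examined at the RNA level. Of 15 partners and regulators of TG2, 0 were called and 0 were without overlap, against 0.102% and 10.5% of all tested genes. Their median log2 fold change was -0.03, beside -0.03 over all tested genes. The partner median ranged from -0.25 (without WT tumor 3) to 0.12 (without knockout tumor 1). The most abundant were *Calr* and *Pdia3*, chaperones of the endoplasmic reticulum, with log2 fold changes of 0.55 (SE 0.37) and 0.24 (SE 0.35). Of 14 tested transglutaminase substrates, 0 were called and 1 was higher without overlap, against 5.18% of all tested genes (*Vtn*, vitronectin, 26.2 to 64.8 in WT and 78.8 to 164 in knockout tumors, chosen after its values were seen). The substrate median was 0.44, and it was 0.07 without WT tumor 3 and 0.92 without WT tumor 1. The list was led by the collagen genes *Col3a1* (0.57, SE 0.53) and *Col1a1* (0.63, SE 0.50), which were lowest in WT tumor 3 (22485 and 24789 normalized counts).

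Other enzymes that crosslink the same matrix were taken next. The 9 lysyl oxidase, peroxidasin and lysyl hydroxylase genes had a median of 0.13 (-0.13 without WT tumor 3 to 0.29 without WT tumor 1). Of these, 0 were called and 0 were without overlap, against 0.102% and 10.5% of all tested genes. *Loxl2* and *Loxl1*, which oxidize lysines of collagen and elastin, had log2 fold changes of -0.28 (SE 0.42) and 0.36 (SE 0.44). Of 10 tested genes of fibrin formation and removal, in which factor XIII acts, 0 were called and 1 was lower without overlap, against 5.33% of all tested genes. That gene was *Plat*, tissue plasminogen activator, with 7809 to 10474 in WT and 4650 to 7612 in knockout tumors (log2 fold change -0.53, SE 0.24). *F2r*, the thrombin receptor gene and the other abundant one, had -0.06 (SE 0.31), and the list median was -0.06 (-0.22 to 0.01 without 1 tumor).

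The *Tgm2* gene is known to be induced by retinoic acid, TGF-β and NF-κB. Of 16 retinoid pathway genes, 0 were called and 3 were higher without overlap, where 5.18% of all tested genes were. The median was 0.28, and it was 0.10 without knockout tumor 1, 0.39 without knockout tumor 3 and 0.64 with the white adipocyte covariate. *Stra6*, the retinol transporter gene, had a log2 fold change of 0.36 (SE 0.34), and *Aldh1a1*, which makes retinoic acid, had 1.02 (SE 0.38, adjusted p = 0.805 from limma) with 11251, 12675 and 7536 normalized counts in WT and 32899, 12277 and 22230 in knockout tumors. Of 14 TGF-β and NF-κB genes, 0 were called and the median was 0.06 (-0.04 to 0.20 without 1 tumor). *Tgfbr2* and *Tgfb3* had 0.34 (SE 0.26) and 0.29 (SE 0.34), and *Tnf*, the 1 gene that was lower without overlap (5.33% of all tested genes were), had 60.8 to 64.5 in WT and 30.3 to 45.3 in knockout tumors (chosen after its values were seen).

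Genes of the cornified envelope, where *Tgm1*, *Tgm3* and *Tgm5* act in skin, were compared as well. Of 18 tested genes, 0 were called and 1 was lower without overlap, against 5.33% of all tested genes. The median log2 fold change was -0.34 (-0.47 to -0.20 without 1 tumor). The most abundant were *Sbsn* and *Krt14*, both of stratified epithelium, with -0.45 (SE 0.34) and 0.13 (SE 0.56). *Ivl*, *Sprr2d*, *Krt1*, *Krt5* and *Abca12*, which mark keratinocytes, were at 0 in at least 1 tumor.

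At an unadjusted p under 0.05 from limma, without adjustment for the number of genes, 5.78% of all tested genes passed. In the pathway lists there were 4 of 16 retinoid genes, 1 of 14 substrates, and 0 of the partners, the other crosslinking enzymes, the TGF-β and NF-κB genes, the fibrin genes and the cornified envelope genes. Among cell markers there were 16 of 22 white adipocyte, 7 of 11 plasma cell, 6 of 16 resident macrophage, 3 of 10 smooth muscle and 2 of 14 core macrophage genes. The fibroblast and epithelial lists had 2 each, the endothelial, leukocyte and platelet lists 1 each, and the large peritoneal macrophage list 0.

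The median of the transglutaminase family itself was -0.01, and it was 0.33 without WT tumor 3, 0.25 without knockout tumor 2 and -0.13 without knockout tumor 3. With the mean of the white adipocyte genes as a covariate, a mean that did not overlap between the groups, several list medians turned direction. The smooth muscle median was then 0.52, the core macrophage median -0.72, the resident macrophage median -0.36, the fibroblast median -0.09, the leukocyte median -0.07 and that of the other crosslinking enzymes -0.04. The white adipocyte genes themselves had -0.25 in that fit.

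**Figure D5:**
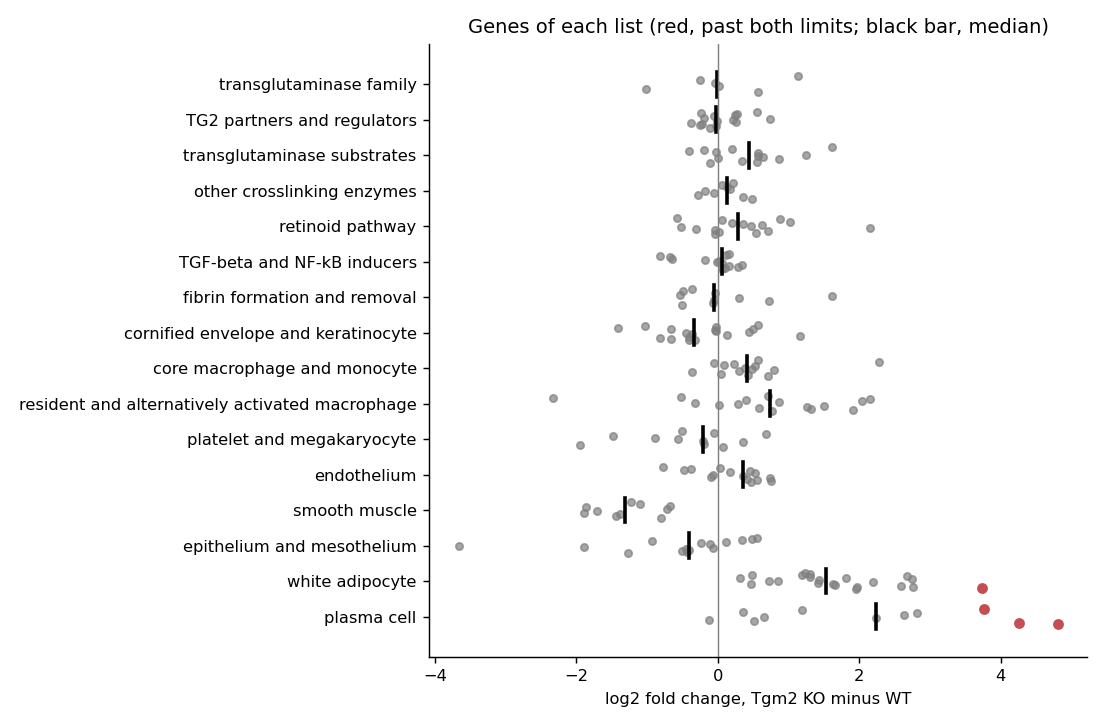
Log2 fold change, knockout minus WT (x axis, log2 scale), of each tested gene in 16 of the gene lists (y axis), 1 point per gene, red where the gene passed both limits and grey otherwise, with the list median as a black bar. The medians of the transglutaminase family and the partners of TG2 are -0.01 and -0.03, and those of the smooth muscle and plasma cell genes are -1.31 and 2.24.

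The genes whose pattern over the 6 tumors was most like each member were sought among genes of similar spread with a mean of at least 100 normalized counts. For *Tgm2* these were *Shroom1* (Pearson's r = 0.992), *Scel* (0.977), *Ddx60* (0.976), *Sptb* (0.968) and *Pvr* (0.968), out of 7260 genes compared, of which 9 reached 0.95. All 5 were lower in the knockout tumors without overlap, as *Tgm2* was, where 5.33% of all tested genes were. They were picked for their likeness to *Tgm2*, so this follows from the choice and is no separate result. *Scel* encodes sciellin, a precursor of the cornified envelope, and had 226, 209 and 216 normalized counts with WT hosts and 118, 143 and 153 with knockout hosts. Its log2 fold change was -0.66, smaller in size than that of *Tgm2*.

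For *F13a1* the 5 were *Kcnk13* (r = 0.982), *Angptl7* (0.979), *Pltp* (0.969), *Ly6c1* (0.964) and *Tlr6* (0.964), of 2576 genes compared. All 5 overlapped between the groups and had their highest value in knockout tumor 2 and their lowest in WT tumor 3. *F13a1* did so too, and these genes were picked for their likeness to it. *Pltp*, the phospholipid transfer protein gene, had 2728, 2119 and 1371 normalized counts with WT hosts and 2571, 4512 and 3240 with knockout hosts. For *Tgm1* they included *F13a1*, *Adamtsl1*, *Cpxm1* and *Scara3*, with r from 0.971 to 0.982 among 7907 genes compared, so a second member of the family stood among them.

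For *Tgm5* the genes were 9930111J21Rik2, *Cdc25b*, *Abhd2*, *Wdhd1* and *Relb*, with r from 0.974 to 0.985. *Tgm4* had *Zfp704*, *Dsp*, *Ptpn23*, *Golga4* and *Syt15* (0.964 to 0.986), and *Tgm3* had *Nova1*, *Senp7*, *Rexo1*, *Erbb3* and *Trmt44* (0.913 to 0.966). All 15 overlapped between the groups. With 6 tumors and this many genes, values of r this high are given as a description of likeness only.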

How the data were processed

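RNA of 6 primary tumors (3 WT, 3 *Tgm2* knockout) was sequenced by the authors as 100-nucleotide pairs from polyA libraries. The authors quantified transcripts with kallisto (0.46.2, with GRCm38, in the submitters' processing notes), summed them to genes, removed genes with low expression and divided by DESeq2 size factors. The deposited signal is therefore an estimated count scaled by library depth (a normalized count), although the table is named TPM. Columns were matched to tumors by group and replicate. Low values came within 0.1 of a whole read for 93.5% to 99.1% of genes with 1 transcript but for 50.4% to 59.6% of the others, so no count test was run.

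From these, log2(value + 1) was compared with limma 3.58.1 in R 4.3.3, with a trend of variance on mean, no covariate and Benjamini-Hochberg adjustment over 19667 genes. At an unadjusted p under 0.05, 1137 genes passed. Permutation tests were two-sided and exact. The fit was tested on simulated data. Lengths, positions and sequences came from GENCODE M21.

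The members, the lists and the tests were chosen with earlier results of these data known. Named were all members, the 2 most abundant and any called gene of each list, and the 5 genes most like each member. A few genes that this rule names are not reported here.

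Alternative settings of the pseudocount, filter, scaling, replicate block, variance trend, weights and tumors were run, with an adipocyte covariate in 1 of them. Macrophage, smooth muscle and endothelium covariates were added after seeing the data.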

Additional observations from a re-analysis of the deposited data

How the results depend on the processing

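In 0 settings did a member pass both limits. *Tgm2* stayed lower in all, with a log2 fold change from -1.17 to -0.93 without 1 tumor and from -1.18 (smooth muscle covariate) to -0.998 otherwise. The family sum ranged from -0.88 to -0.65 without 1 tumor and was -0.83 with lengths as the union of exons. *F13a1* ranged from 0.55 to 1.55 without 1 tumor and turned to -0.32 with the white adipocyte covariate. *Tgm1* stayed above 0, from 0.31 to 0.86 without 1 tumor and down to 0.03 with that covariate, and *Tgm5* stayed below 0, from -0.49 to -0.08 without 1 tumor. *Tgm3* turned to -0.0080 with a pseudocount of 10, -0.15 with the adipocyte and -0.43 with the smooth muscle covariate, and *Tgm4* to 0.018 with a pseudocount of 0.1, 0.040 with quantile normalization, 0.12 with array weights and 2.26, 0.42 and 0.30 with the adipocyte, macrophage and smooth muscle covariates. Without 1 tumor these 2 genes ranged from -0.36 to 0.34 and from -0.91 to 0.62. The cause of these turns was not tested.

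The number of genes called fell from 20 to 4 with no variance trend, to 0, 2, 11 and 17 with the adipocyte, endothelium, smooth muscle and macrophage covariates, and to between 2 (without WT tumor 2) and 14 without 1 tumor. The adipocyte and endothelium means did not overlap between the groups, so these covariates ran along with genotype. With the replicate number as a block it was 5, and *Tgm2* had an adjusted p of 0.694. The deviations of same-numbered tumors of the 2 groups had no common direction (r = -0.20, 0.28 and -0.31). With so few tumors per group, these values cannot tell whether the numbers paired the samples. Rescaling by median-of-ratios factors changed no call, since the factors were equal in all tumors. Values of a few normalized counts, as in *Tgm3*, *Tgm4* and *Epb42*, rest on a few reads.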
